A study of Mus musculus with 7 samples.

Results

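Keratins are the intermediate filament proteins of epithelial cells. A type I keratin assembles with a type II keratin, so that the genes are known by their pairs, with Krt18 and Krt8 in simple epithelia such as liver, gut and mesothelium, Krt14 and Krt5 in the basal layer of skin, and Krt10 and Krt1 above it. The inner root sheath and the shaft of the hair follicle have keratins of their own, while mesenchymal cells, the dermal sheath among them, build their filaments of vimentin. Every gene was taken whose probe carries an accession that maps to a mouse symbol of Krt and a number, whatever its signal, and the keratin-associated proteins were left out. This gave 53 keratin genes, read by 64 probes, of 21154 named genes on the arrays. Of these, 42 had 1 probe and 11 had 2.

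The study activated β-catenin, through which Wnt signals act on transcription, in the dermal sheath, the mesenchymal layer around the hair follicle. Cells were sorted from dorsal skin at postnatal day 15 by the gate YFP+ CD34- ALP- ITGα8- (ALP, alkaline phosphatase), from cΔex3 mice (labelled β-catenin activation) and from control mice, and the driver of the allele and of the reporter is not given in the sources used here. There were 4 cΔex3 arrays from 6 mice, with 2 mice pooled on array 2 and 2 on array 3, and 3 control arrays from 4 mice, with 2 pooled on array 3. The number of arrays limits the precision of every difference.

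The arrays went against their cell type label, so the groups are called by their labels and no effect of the allele is read from them. The median of 14 hepatocyte markers lay between −2.86 and −0.05 on the cΔex3-labelled arrays and between 7.08 and 7.61 on the control-labelled arrays, as levels, which are log2 of the processed signal relative to the array's 75th percentile. The median of 10 adipocyte markers lay between 6.56 and 7.96 on the cΔex3-labelled arrays and between −0.99 and 0.32 on the control-labelled arrays, and that of 9 mesothelium markers between −0.18 and 1.54 and between −3.96 and −2.78. Markers of the dermal sheath and dermis had medians between 3.36 and 4.42 on the cΔex3-labelled arrays and between −0.19 and 0.60 on the control-labelled arrays. Of that list, 10 of 10 tested genes were higher in the cΔex3-labelled group, while Sox2, not tested, was above background on 0 arrays. Among single markers Alb, albumin, differed by −8.30, Adipoq, adiponectin of adipocytes, by 11.43, Msln and Wt1, of mesothelium, by 5.22 and 5.08, and Acta2, smooth muscle actin, by 5.20 (cΔex3-labelled minus control-labelled, adjusted p 5.83e-05 to 0.00312). The 75th percentile itself was 1858, 1348, 1659 and 2160 on the cΔex3-labelled arrays and 763, 756 and 907 on the control-labelled arrays, so an equal processed signal gives a lower level in the cΔex3-labelled group. Ctnnb1, the gene of β-catenin, had levels between 3.39 and 3.49 in the cΔex3-labelled group and between 3.45 and 3.47 in the control-labelled group (difference −0.02, adjusted p = 0.902 with limma), and the exon its probe reads is not known here, so that it checks no label.

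Promoters are shown for 6 keratins: the Krt8 and Krt18 pair, Krt7, Krt23, and the hair keratins Krt31 and Krt34. Both hair keratins fell, Krt34 past the threshold only with scaling between arrays. Each window runs from 250 bases before to 50 after the gene's start in RefSeq on GRCm38.p6, 5′ to 3′ on the gene's strand, and 36 of the 53 genes had an entry, with 37 windows, all on chromosome 11 or 15. Capitals mark matches, on either strand, to TATAAA (the TATA box), GGGCGG (the GC box), TGANTCA (AP-1) or CTTTGAA (TCF/LEF, the factors that β-catenin binds). 
Krt8 (type II, chr15:102004293-102004592, minus strand): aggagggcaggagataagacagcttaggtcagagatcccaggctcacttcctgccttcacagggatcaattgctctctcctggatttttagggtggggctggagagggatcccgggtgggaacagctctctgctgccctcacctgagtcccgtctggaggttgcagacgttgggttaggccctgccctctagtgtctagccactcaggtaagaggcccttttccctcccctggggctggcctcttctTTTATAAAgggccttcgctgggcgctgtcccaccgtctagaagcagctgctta
Krt18 (type I, chr15:102027966-102028265, plus strand): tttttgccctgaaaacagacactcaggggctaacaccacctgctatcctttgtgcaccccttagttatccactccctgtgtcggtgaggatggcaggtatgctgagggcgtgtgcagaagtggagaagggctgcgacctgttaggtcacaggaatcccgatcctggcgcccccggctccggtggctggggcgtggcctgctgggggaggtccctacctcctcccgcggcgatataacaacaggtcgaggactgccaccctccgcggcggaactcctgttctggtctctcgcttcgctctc
Krt7 (type II, chr15:101412153-101412452, plus strand): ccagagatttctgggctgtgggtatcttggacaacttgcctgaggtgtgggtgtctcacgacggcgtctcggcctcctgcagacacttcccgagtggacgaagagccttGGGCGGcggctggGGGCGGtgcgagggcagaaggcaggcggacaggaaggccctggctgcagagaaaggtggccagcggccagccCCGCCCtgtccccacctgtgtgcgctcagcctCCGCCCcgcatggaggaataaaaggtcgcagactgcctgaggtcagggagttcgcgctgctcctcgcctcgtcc
Krt23 (type I, chr11:99493071-99493370, minus strand): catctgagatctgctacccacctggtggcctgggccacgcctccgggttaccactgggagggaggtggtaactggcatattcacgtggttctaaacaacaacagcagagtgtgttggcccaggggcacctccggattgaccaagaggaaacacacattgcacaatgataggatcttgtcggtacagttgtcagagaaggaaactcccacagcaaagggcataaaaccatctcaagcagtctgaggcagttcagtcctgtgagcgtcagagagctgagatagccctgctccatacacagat
Krt31 (type I, chr11:100050502-100050801, minus strand): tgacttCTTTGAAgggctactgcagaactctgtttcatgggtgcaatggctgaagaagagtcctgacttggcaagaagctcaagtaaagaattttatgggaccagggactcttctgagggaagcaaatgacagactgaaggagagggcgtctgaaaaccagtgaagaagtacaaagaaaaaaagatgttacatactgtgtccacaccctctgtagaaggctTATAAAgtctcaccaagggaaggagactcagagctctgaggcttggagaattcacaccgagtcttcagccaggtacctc
Krt34 (type I, chr11:100041505-100041804, minus strand): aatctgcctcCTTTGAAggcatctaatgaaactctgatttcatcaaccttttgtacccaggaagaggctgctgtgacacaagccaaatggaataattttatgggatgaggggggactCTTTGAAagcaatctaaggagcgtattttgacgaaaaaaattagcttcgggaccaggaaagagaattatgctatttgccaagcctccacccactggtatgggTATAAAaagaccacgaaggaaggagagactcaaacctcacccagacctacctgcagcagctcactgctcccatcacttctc

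TATAAA was in 19 of the 37 keratin windows (51.4%), against 13.6% of 32851 promoter windows. In Krt8 its 2 matches overlap, as the letters read on both strands. Matches were counted anywhere in the window, so not each lies where a TATA box works. The first begins at −3 from the gene's start in Krt8, 19 in Krt42, −203 in Krt72 and −206 in Krt84. In Krt31 and Krt34 it begins at −29 and −31. GGGCGG was in 2 of 37 keratin windows (5.41%), with 4 matches in Krt7, against 35.7% of all windows. TGANTCA was in 2 of 37 (5.41%), both of Krt13, against 7.81%. CTTTGAA was in 6 of 37 keratin windows (16.2%), against 5.14% of all, those of Krt28, Krt31, Krt32, Krt33b, Krt34 and Krt39. Counted from the gene's start, its first match began at −244 in Krt31, −247 in Krt32, −247 in Krt33b and −240 in Krt34, 4 related hair keratin genes that lie close together. A match describes these letters only, and no binding was measured.

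Of the 53 keratin genes, 39 were tested, being well above background on at least 3 of the 7 arrays. The other 14 had levels between −9.40 and −4.41. Among them, Krt1, Krt4, Krt12, Krt26, Krt39, Krt40, Krt76, Krt84 and Krt90 were above background on 0 arrays, and 5 on 1 or 2 arrays, namely Krt25 and Krt32 on cΔex3-labelled array 4, Krt87 on array 1, Krt77 on arrays 1 and 4, and Krt75 on control-labelled array 2. Krt1, the partner of Krt10 in the upper epidermis, was thus not detected on any array. Keratin genes above background numbered 41, 28, 30 and 42 on cΔex3-labelled arrays 1 to 4 and 35, 33 and 33 on control-labelled arrays 1 to 3, while probes of all kinds above background made up 81.6%, 69.0%, 70.8% and 82.7%, and 71.5%, 69.6% and 69.3%.

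In the comparison of cΔex3-labelled with control-labelled arrays, 6 keratins rose and 18 fell (limma, Benjamini-Hochberg over 18026 genes, threshold 0.05), and 15 did not pass the test. These 24 make up 61.5% of the 39 tested. Krt33a and Krt36, among the 6 that rose, entered the test through the cΔex3-labelled arrays alone. The background was 53.1% of all genes tested, 24% higher and 29% lower. No array of one group reached into the range of the other for 24 of the 39 (61.5%), against 58.7% of all genes tested. The median difference, cΔex3-labelled minus control-labelled, was −0.54 over the keratins tested and −0.08 over all genes tested. Past a difference of 2 on the log2 scale, 5 keratins rose and 7 fell. All 24 kept their sign within both rows of the slide, which each hold arrays of both groups. Where the groups did not overlap this sign was fixed in advance, so it is no test of a slide effect. Row 1 holds 1 cΔex3-labelled array. There the differences of Krt33a and Krt6a, whose groups overlap, were 0.10 and −0.09. These are bulk samples, in which fewer cells of a type and less RNA per cell cannot be told apart.

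**Figure D1:**
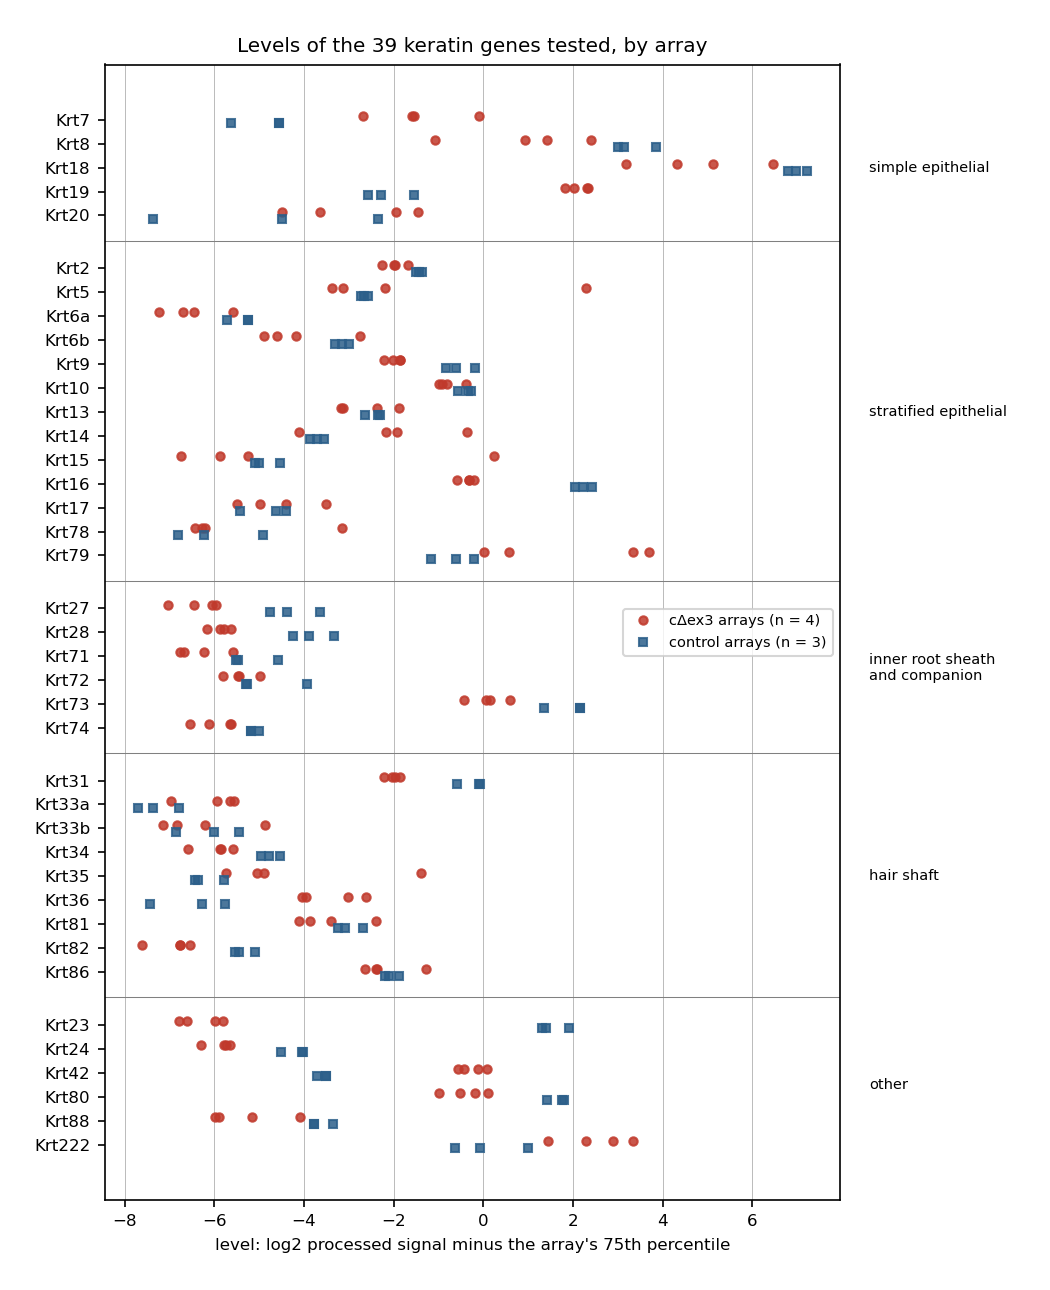
Level of each of the 39 keratin genes tested, as log2 of the processed signal relative to the array's 75th percentile, with 1 point for each of the 4 cΔex3-labelled arrays (red circles) and the 3 control-labelled arrays (blue squares). Krt7, Krt19, Krt42 and Krt222 lie to the right on all cΔex3-labelled arrays, Krt23 lies near −6 there and above 1 on the control-labelled arrays, and levels are to be compared within a gene only.

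The simple epithelial keratins split. Of 5 genes, 2 rose (Krt7, Krt19), 2 fell (Krt8, Krt18) and Krt20 did not pass the test. Each share is 40%, against 24% higher and 29% lower of all genes tested. Krt19, a type I keratin of ducts, mesothelium and other simple epithelia, had levels of 1.82, 2.31, 2.02 and 2.33 on cΔex3-labelled arrays 1 to 4, against −2.57, −2.28 and −1.54 on control-labelled arrays 1 to 3. The groups were far apart, with little spread in either. It averaged 2.12 ± 0.25 (SD, n = 4) in the cΔex3-labelled group and −2.13 ± 0.53 (SD, n = 3) in the control-labelled group, a difference of 4.25 ± 0.28 (SE, adjusted p = 5.08e-05, 19-fold higher), and it passed the threshold in all 18 alternative settings. Within the rows of the slide the difference was 4.25 and 3.76.

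Krt7, the type II keratin of ducts, bladder lining and mesothelium, had levels of −2.68, −1.59, −1.55 and −0.10 on the cΔex3-labelled arrays, against −4.56, −5.63 and −4.56 on the control-labelled arrays, of which 2 of 3 were above background. All cΔex3-labelled arrays were higher, array 4 the most. The difference was 3.43 ± 0.60 (SE, adjusted p = 0.0031). Its size depended on the processing, at 1.74 after normexp (adjusted p = 0.0194) and 2.21 in the deposited values (adjusted p = 0.00874). On the arrays of 1 mouse alone it was 3.71, with an adjusted p of 0.0615.

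Krt8 and Krt18, the obligate pair of hepatocytes and of most simple epithelia, moved together across the arrays. Krt8 had levels of 0.94, 1.42, −1.07 and 2.40 on the cΔex3-labelled arrays, against 3.13, 3.01 and 3.86 on the control-labelled arrays. Krt18 had levels of 4.33, 5.12, 3.18 and 6.46 on the cΔex3-labelled arrays, against 6.97, 6.81 and 7.21 on the control-labelled arrays. In both genes array 3 was lowest and array 4 highest of the cΔex3-labelled group, and no cΔex3-labelled array reached the control-labelled ones. The fall was −2.41 ± 0.77 for Krt8 (SE, adjusted p = 0.0335, 5.32-fold) and −2.23 ± 0.71 for Krt18 (SE, adjusted p = 0.0334, 4.68-fold). Each call was lost in 11 of 18 alternative settings. Without cΔex3-labelled array 1 or 2, or without any 1 of the control-labelled arrays, Krt8 differed by −2.58 to −2.15 (adjusted p 0.0523 to 0.102) and Krt18 by −2.34 to −2.08 (adjusted p 0.0563 to 0.0913). Without scaling between arrays the differences were −1.31 (adjusted p = 0.199) and −1.12 (adjusted p = 0.234), and the signals of the groups then overlapped, as that of Krt18 was 189800 on cΔex3-labelled array 4 and between 84640 and 134300 on the control-labelled arrays.

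Krt20, a keratin of intestinal and bladder surface cells, ran from −4.49 to −1.45 on the cΔex3-labelled arrays and from −7.36 to −2.34 on the control-labelled arrays. Its groups overlapped, and the difference of 1.85 ± 1.26 (SE) did not pass the test (adjusted p = 0.25). Without control-labelled array 2 it was 0.54 (adjusted p = 0.705), and without control-labelled array 3 it was 3.05 (adjusted p = 0.0736).

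The marker lists of simple epithelia and of liver also differed between the groups. Within the cΔex3-labelled group the hepatocyte median was lowest on array 1 (−2.86) and the mesothelium median on array 4 (−0.18). The bile duct median was lowest on array 3 (−3.05), as were Krt8 and Krt18. Summed over 14 hepatocyte markers, the level was between 3.97 and 5.68 in the cΔex3-labelled group and between 11.96 and 12.33 in the control-labelled group, and Cyp8b1 and Baat of that list were above background on 0 cΔex3-labelled arrays. The same sum over 9 mesothelium markers was between 4.14 and 5.75 in the cΔex3-labelled group and between −1.21 and 0.83 in the control-labelled group, where Upk1b and Bnc1 were above background on 0 arrays. All 14 hepatocyte markers fell and all 9 mesothelium markers rose. Of 9 bile duct markers tested, 2 rose (22.2%) and 3 fell (33.3%), near the 24% and 29% of all genes tested. Their sum was between 4.04 and 5.28 in the cΔex3-labelled group and between 2.63 and 3.42 in the control-labelled group. On cΔex3-labelled arrays 1 to 3 most of it was 1 gene, Bicc1, at 4.465, 4.046 and 3.876. The bile duct median was between −3.05 and −0.73 in the cΔex3-labelled group and between −1.08 and −0.90 in the control-labelled group, with overlap. The part of these cells in the keratin differences was not tested.

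**Figure D2:**
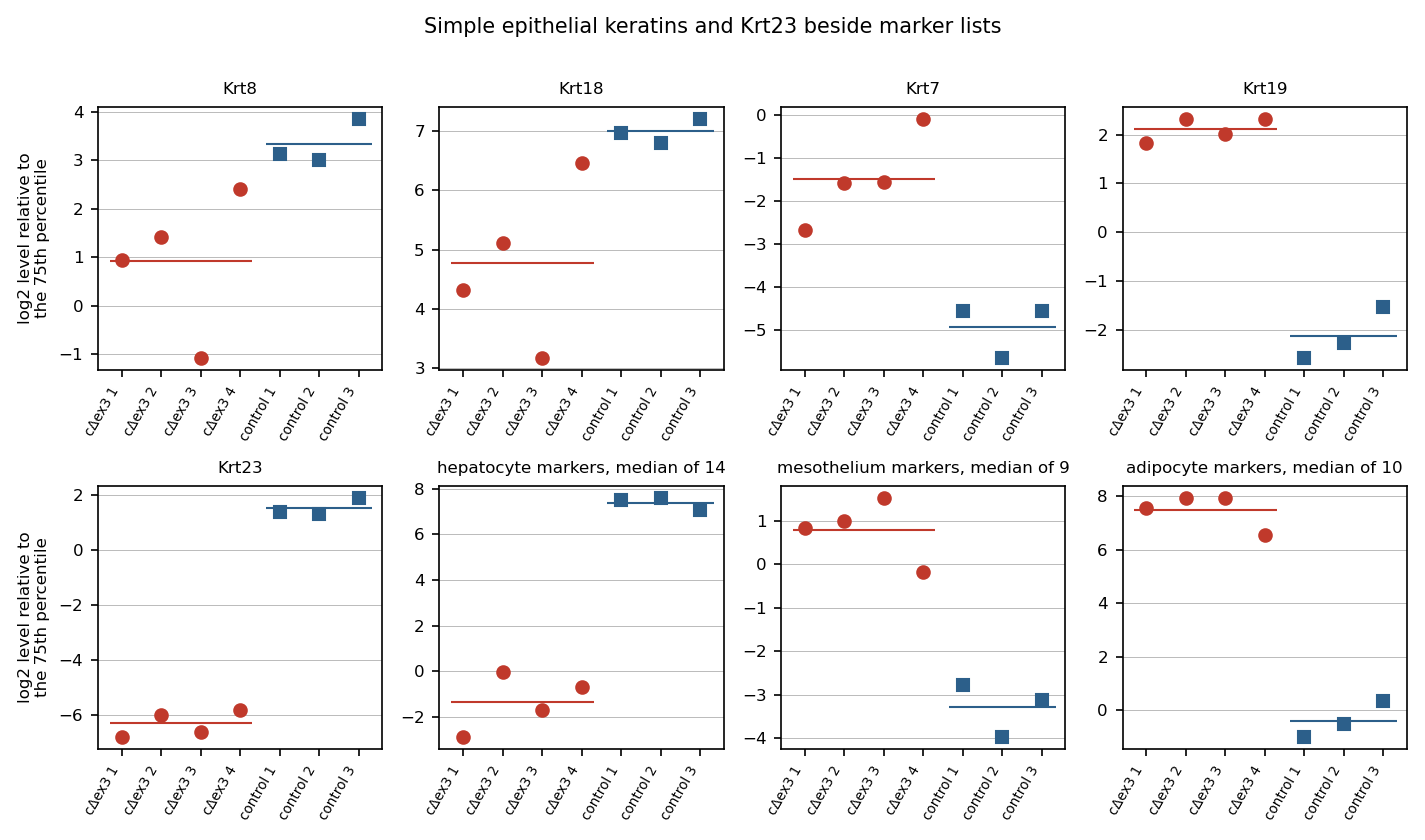
Level by array of Krt8, Krt18, Krt7, Krt19 and Krt23, and the median level of the hepatocyte, mesothelium and adipocyte marker lists, with the cΔex3-labelled arrays (red circles) left of the control-labelled arrays (blue squares), a line at each group's mean, and a vertical axis that differs between panels. Krt19 is near 2 on all 4 cΔex3-labelled arrays, Krt8 and Krt18 vary together among these arrays, and Krt23 and the hepatocyte median are low on all of them.

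Krt23, a type I keratin described as inducible in mouse liver, changed more than any other keratin tested. Its levels were −6.78, −5.98, −6.61 and −5.81 on the cΔex3-labelled arrays, where 2 of 4 were above background, against 1.39, 1.31 and 1.91 on the control-labelled arrays. In processed signal this is 17.0, 21.3, 17.0 and 38.6 on the cΔex3-labelled arrays, against 2003, 1873 and 3411 on the control-labelled arrays. No array of one group came near the other. The difference was −7.83 ± 0.30 (SE, adjusted p = 9.3e-06). Its size depended on the processing of signals near background, at −5.86 after normexp and −5.51 in the deposited values, and it lay between −8.08 and −5.51 over all 18 alternatives, past the threshold in each. Within the rows of the slide it was −8.13 and −8.04.

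Krt42, a type I keratin known from the mouse nail unit, and Krt222, a shortened keratin-like gene, rose in all 18 alternatives. Krt42 had levels of −0.44, 0.09, −0.57 and −0.12 on the cΔex3-labelled arrays, against −3.71, −3.51 and −3.51 on the control-labelled arrays. Krt222 had levels of 2.89, 1.44, 2.30 and 3.34 on the cΔex3-labelled arrays, against −0.63, −0.07 and 0.99 on the control-labelled arrays. Neither gene's groups overlapped, and the spread within groups was wider for Krt222. The difference was 3.32 ± 0.21 for Krt42 (SE, adjusted p = 4.03e-05) and 2.39 ± 0.55 for Krt222 (SE, adjusted p = 0.00934). Within the rows of the slide it was 3.17 and 3.31 for Krt42, and 3.24 and 1.37 for Krt222. The second probe of Krt222 was above background on 1 cΔex3-labelled array and 0 control-labelled arrays.

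Krt80, a type II keratin of many epithelia, had levels of 0.10, −0.53, −0.18 and −0.99 on the cΔex3-labelled arrays, against 1.75, 1.81 and 1.42 on the control-labelled arrays. It fell by 2.06 without overlap (adjusted p = 0.00111) and passed in all 18 alternatives. Krt24, known from differentiating keratinocytes, fell by 1.68 (adjusted p = 0.00104), and by 0.57 with an adjusted p of 0.143 without scaling. Krt88 fell by 1.64 (adjusted p = 0.0223), a call lost without any 1 of the control-labelled arrays (−1.72 to −1.50, adjusted p 0.0519 to 0.078).

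Of 18 keratins of stratified epithelia, 13 were tested. Of these, 0 rose and 4 fell with limma, Krt2, Krt6a, Krt9 and Krt16, while 1 was higher and 4 were lower at an unadjusted p under 0.05. The share that fell, 30.8%, is near the 29% of all genes tested, of which 24% rose. Without scaling between arrays Krt14 rose by 2.66 (adjusted p = 0.025) and Krt79 by 3.67 (adjusted p = 0.00782). Krt16, which stratified epithelia make with Krt6 in the follicle and in wounds, had levels of −0.58, −0.21, −0.31 and −0.31 on the cΔex3-labelled arrays, against 2.05, 2.43 and 2.23 on the control-labelled arrays. Both groups were tight and far apart, and the standard error was the lowest among the keratins tested. The difference was −2.59 ± 0.17 (SE, adjusted p = 5.33e-05), and −1.48 (adjusted p = 0.00114) without scaling. Krt9, of palm and sole epidermis, fell by 1.45 (adjusted p = 0.00133), and by 0.34 with an adjusted p of 0.296 without scaling. Krt2, of the upper epidermis, differed by −0.54 (adjusted p = 0.04), and by 0.56 in the other direction without scaling. Its call was lost without cΔex3-labelled array 1 or 3 or any 1 of the control-labelled arrays (−0.58 to −0.45, adjusted p 0.0769 to 0.124). Krt6a differed by −1.08 (adjusted p = 0.0499) with overlapping groups, and by 0.02 without scaling, and kept its call in 3 of 17 alternatives. It lost the call without cΔex3-labelled array 2, 3 or 4 or any 1 of the control-labelled arrays (−1.24 to −0.84, adjusted p 0.074 to 0.138).

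The basal pair did not pass the test. Krt5 had levels of −3.38, −3.14, −2.19 and 2.30 on the cΔex3-labelled arrays, against −2.56, −2.67 and −2.73 on the control-labelled arrays. Krt14 had levels of −4.12, −2.18, −1.92 and −0.35 on the cΔex3-labelled arrays, against −3.55, −3.86 and −3.70 on the control-labelled arrays. Krt15, a basal keratin also known from the follicle bulge, had levels of −6.75, −5.86, −5.26 and 0.25 on the cΔex3-labelled arrays, against −5.01, −5.08 and −4.54 on the control-labelled arrays. In all 3 genes the level was highest on array 4 and lowest on array 1 of the cΔex3-labelled group. On array 1 it also lay below every control-labelled array. For Krt5 and Krt14 this depended on the scaling, as the processed signals on array 1 were 178.1 and 106.9. Those on the control-labelled arrays were lower, 118.8 to 136.5 and 52.14 to 69.55. Unscaled, Krt5 was lowest on cΔex3-labelled array 2, at 153.3, while Krt15 on array 1, at 17.25, stayed below the control-labelled arrays. The differences were 1.05 ± 1.33 for Krt5 (SE, adjusted p = 0.532), 1.56 ± 0.79 for Krt14 (adjusted p = 0.134) and 0.47 ± 1.59 for Krt15 (adjusted p = 0.821). Without cΔex3-labelled array 4 they were −0.25 for Krt5 (adjusted p = 0.533) and −1.08 for Krt15 (adjusted p = 0.0573), and without array 1 Krt14 differed by 2.22 (adjusted p = 0.0146). The second probe of Krt5 was above background on cΔex3-labelled array 4 alone.

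Krt79, a type II keratin known from the upper follicle and the sebaceous duct in mouse skin, was highest on other arrays. Its levels were 0.58, 3.35, 3.70 and 0.01 on the cΔex3-labelled arrays, against −0.60, −1.16 and −0.21 on the control-labelled arrays. The groups did not overlap, but the cΔex3-labelled arrays fell into a high pair, the arrays of pooled mice, and a lower pair of single mice. The difference of 2.57 ± 0.97 (SE) had an adjusted p of 0.06, and without cΔex3-labelled array 4 it was 3.20 (adjusted p = 0.0176). Krt10, of the upper epidermis, read −0.38 (adjusted p = 0.152) by its brighter probe and 1.24 (adjusted p = 0.00249 among probes) by the other, so that its probes disagree. Krt6b read −0.95 (adjusted p = 0.146) by its brighter probe and −1.97 (adjusted p = 0.00157 among probes) by the other. It passed as lower by the mean of its probes (−1.46, adjusted p = 0.0117), after normexp (−0.88, adjusted p = 0.0479) and without cΔex3-labelled array 4 (−1.40, adjusted p = 0.00282), and differed by 0.15 without scaling (adjusted p = 0.831). Krt6a and Krt6b are nearly identical, and no probe sequences were compared, so that the signal of each is uncertain. Krt13, a keratin of mucosal epithelia, differed by −0.21, Krt17, of the outer root sheath, by 0.22, and Krt78, of stratified epithelia, by 0.46, with overlapping groups in each (adjusted p 0.638 to 0.727).

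**Figure D3:**
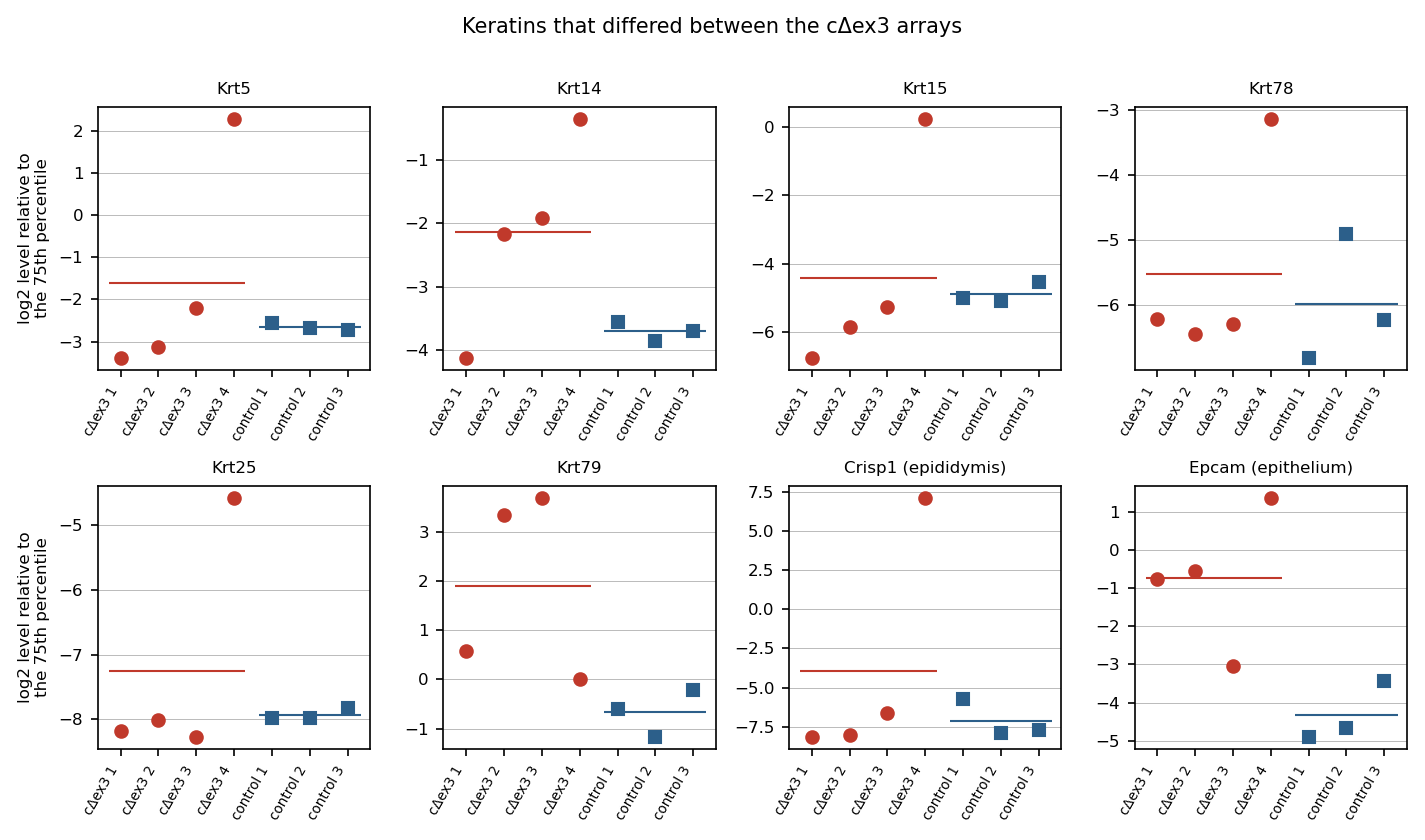
Level by array of Krt5, Krt14, Krt15, Krt78, Krt25 and Krt79, of Crisp1 as an epididymis marker and of Epcam as an epithelial marker, with the cΔex3-labelled arrays (red circles) left of the control-labelled arrays (blue squares), a line at each group's mean, and a vertical axis that differs between panels. Krt5, Krt14, Krt15, Krt78, Krt25, Crisp1 and Epcam are highest on cΔex3-labelled array 4, whereas Krt79 is highest on arrays 2 and 3.

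Within the cΔex3-labelled group array 4 was the highest for 24 of the 39 keratins tested (61.5%), and for 29% of all genes tested. It also had the most probes of all kinds above background. Array 3 was the lowest for 10 (25.6%), and for 19.8% of all genes tested. The SD over arrays was larger in the cΔex3-labelled than in the control-labelled group for 28 of the 39 keratins (71.8%), near the 72.7% of all genes tested. Krt25, an inner root sheath keratin, was above background on array 4 alone, at −4.58. Among other epithelial genes, Epcam, an adhesion molecule of simple epithelia, had levels of −0.75, −0.54, −3.03 and 1.38 on the cΔex3-labelled arrays, against −4.89, −4.67 and −3.44 on the control-labelled arrays. Cdh1, E-cadherin, had levels of −0.63, −0.52, −3.04 and 2.24 on the cΔex3-labelled arrays, against −0.53, 1.23 and 0.15 on the control-labelled arrays. Both followed the order of Krt8 and Krt18 at its ends, lowest on array 3 and highest on array 4. Epcam rose by 3.60 (adjusted p = 0.018), a call lost without control-labelled array 1 (3.32, adjusted p = 0.0651) or 2 (3.43, adjusted p = 0.0611) and with the slide row as a block (3.33, adjusted p = 0.0553), and Cdh1 differed by −0.77 (adjusted p = 0.595). The median of 14 epididymis markers was −5.70, −1.86, −0.68 and 1.07 on cΔex3-labelled arrays 1 to 4 and between −6.19 and −5.80 on the control-labelled arrays. Crisp1 of that list, not tested, was above background on array 4 alone, at 7.13. Cuzd1 and Adam7 were also highest on array 4, at 6.79 and 7.48. Spag11b was highest on array 3, at 6.39, against 1.17 on array 4, and Rnase10 fell by 2.41 (adjusted p = 0.000194). Of 9 members tested 3 rose (33.3%) and 1 fell (11.1%), against 24% and 29% of all genes tested. Cuzd1, among the 3, entered the test through the cΔex3-labelled arrays alone. The summed level was between 2.85 and 9.68 in the cΔex3-labelled group and between 1.79 and 2.24 in the control-labelled group. The part of these cells in the keratins of array 4 was not tested.

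Of 9 keratins of the inner root sheath and the companion layer, the sleeve that moulds the growing hair, 6 were tested. Of these 0 rose and 5 fell with limma (83.3%, against 29% of all genes tested), and 0 were higher at an unadjusted p under 0.05. This share depended on the scaling, as only Krt28 of the 5 also passed without it, where 8.9% of all genes fell. Krt73 had levels of −0.44, 0.16, 0.06 and 0.61 on the cΔex3-labelled arrays, against 2.15, 2.16 and 1.36 on the control-labelled arrays. Krt28 had levels of −5.77, −5.87, −5.62 and −6.17 on the cΔex3-labelled arrays, against −3.33, −3.88 and −4.25 on the control-labelled arrays. Both were lower on every cΔex3-labelled array. Krt28 fell by 2.04 (adjusted p = 0.000776) and passed in all 18 alternatives, −0.94 without scaling among them. Its processed signal was dim, 23.11 to 33.93 in the cΔex3-labelled group and 47.81 to 76.13 in the control-labelled group. The second probe of Krt28 was above background on 0 arrays. Krt73 fell by 1.79 (adjusted p = 0.0031) and Krt27 fell by 2.12 (adjusted p = 0.00287), with −0.69 (adjusted p = 0.116) and −1.01 (adjusted p = 0.0796) without scaling. Krt71 differed by −1.13 (adjusted p = 0.0382), a call lost without any 1 of the arrays other than cΔex3-labelled array 4 (−1.29 to −0.82, adjusted p 0.0581 to 0.129). Without scaling Krt71 differed by −0.025 (adjusted p = 0.967). Krt27 and Krt71 were each above background on 2 of 4 cΔex3-labelled arrays. Processed signals of Krt27, Krt71 and Krt74 were dim too, and overlapped. Krt27 read 10.23 to 34.89 in the cΔex3-labelled group and 33.37 to 61.05 in the control-labelled group. In the same order Krt71 read 12.38 to 45.04 and 16.51 to 31.98, and Krt74 read 17.92 to 43.92 and 21.16 to 24.98. Krt74 differed by −0.86 (adjusted p = 0.0275), a call lost without cΔex3-labelled array 1 or any 1 of the control-labelled arrays (−0.89 to −0.80, adjusted p 0.0632 to 0.0901), and its direction turned to 0.24 without scaling. Krt72 differed by −0.59 and did not pass (adjusted p = 0.231).

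Hair shaft keratins fill the cortex and cuticle of the hair. Of 16 in the list, 14 were on the arrays and 9 were tested, of which 2 rose (Krt33a, Krt36), 3 fell (Krt31, Krt34, Krt82) and 4 did not pass. Shares of 22.2% higher and 33.3% lower lie near the 24% and 29% of all genes tested. Both genes that rose entered the test through the cΔex3-labelled arrays alone, so the share that rose is no result about these keratins. Krt31, one of the genes with CTTTGAA in its promoter, had levels of −2.21, −2.03, −1.85 and −1.97 on the cΔex3-labelled arrays, against −0.07, −0.10 and −0.59 on the control-labelled arrays. The groups were tight and apart. It fell by 1.76 (adjusted p = 0.000434), in all 18 alternatives, and by 0.66 (adjusted p = 0.0386) without scaling. Krt34 fell by 1.22 (adjusted p = 0.00782) and Krt82, of the cuticle, fell by 1.57 (adjusted p = 0.00374). Without scaling these were −0.11 (adjusted p = 0.799) and −0.46 (adjusted p = 0.331). Both were dim, with overlapping processed signals. Krt34 read 14.05 to 38.65 in the cΔex3-labelled group and 27.61 to 32.65 in the control-labelled group. Krt82 read 6.94 to 20.09 and 17.45 to 22.48, above background on 2 of 4 and 2 of 3 arrays.

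Krt33a, Krt35 and Krt36 were above background on all 4 cΔex3-labelled arrays and on 0 of 3 control-labelled arrays, so that the control-labelled group has only a bound. Krt36 had levels of −4.04, −3.02, −2.62 and −3.95 on the cΔex3-labelled arrays, against −6.28, −7.43 and −5.77 on the control-labelled arrays. It was at least 4.89-fold higher in the cΔex3-labelled group, where the control-labelled mean is taken from the higher of its signal and the array's lowest signal above background. The fitted difference was 3.08 (adjusted p = 0.00241). It was 0.51 (adjusted p = 0.19) after normexp background correction and 1.23 (adjusted p = 0.012) in the deposited values. Its other probe read 1.45 (adjusted p = 0.00366 among probes), also with 0 of 3 control-labelled arrays above background. Krt35, made early in the hair cortex, had levels of −5.05, −5.74, −4.89 and −1.38 on the cΔex3-labelled arrays, against −6.42, −6.36 and −5.78 on the control-labelled arrays. It was at least 2.70-fold higher over all 4 arrays, with array 4 far above the others, and at least 1.39-fold higher without array 4. Its fitted difference of 1.92 did not pass (adjusted p = 0.145), and without array 4 it was 0.96 (adjusted p = 0.0332). The fitted difference of Krt35 was 0.28 after normexp (adjusted p = 0.736) and 0.97 in the deposited values (adjusted p = 0.225). The bounds of Krt36 and Krt35 thus depend on the processing. Krt33a differed by 1.25 (adjusted p = 0.0335), from dim signals that allow no fold, and by −0.59 (adjusted p = 0.0451) after normexp. Its call was lost without cΔex3-labelled array 2, 3 or 4 or control-labelled array 2 or 3 (1.05 to 1.22, adjusted p 0.0606 to 0.108). Krt33b (−0.15), Krt81 (−0.44) and Krt86 (−0.11) did not pass (adjusted p 0.411 to 0.849), and Krt81 differed by −0.78 (adjusted p = 0.0384) without cΔex3-labelled array 4. Krt31, Krt33a, Krt33b and Krt34 are closely related genes, as are Krt81 and Krt86. No probe sequences were compared, so whether their signals are separate was not tested.

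**Figure D4:**
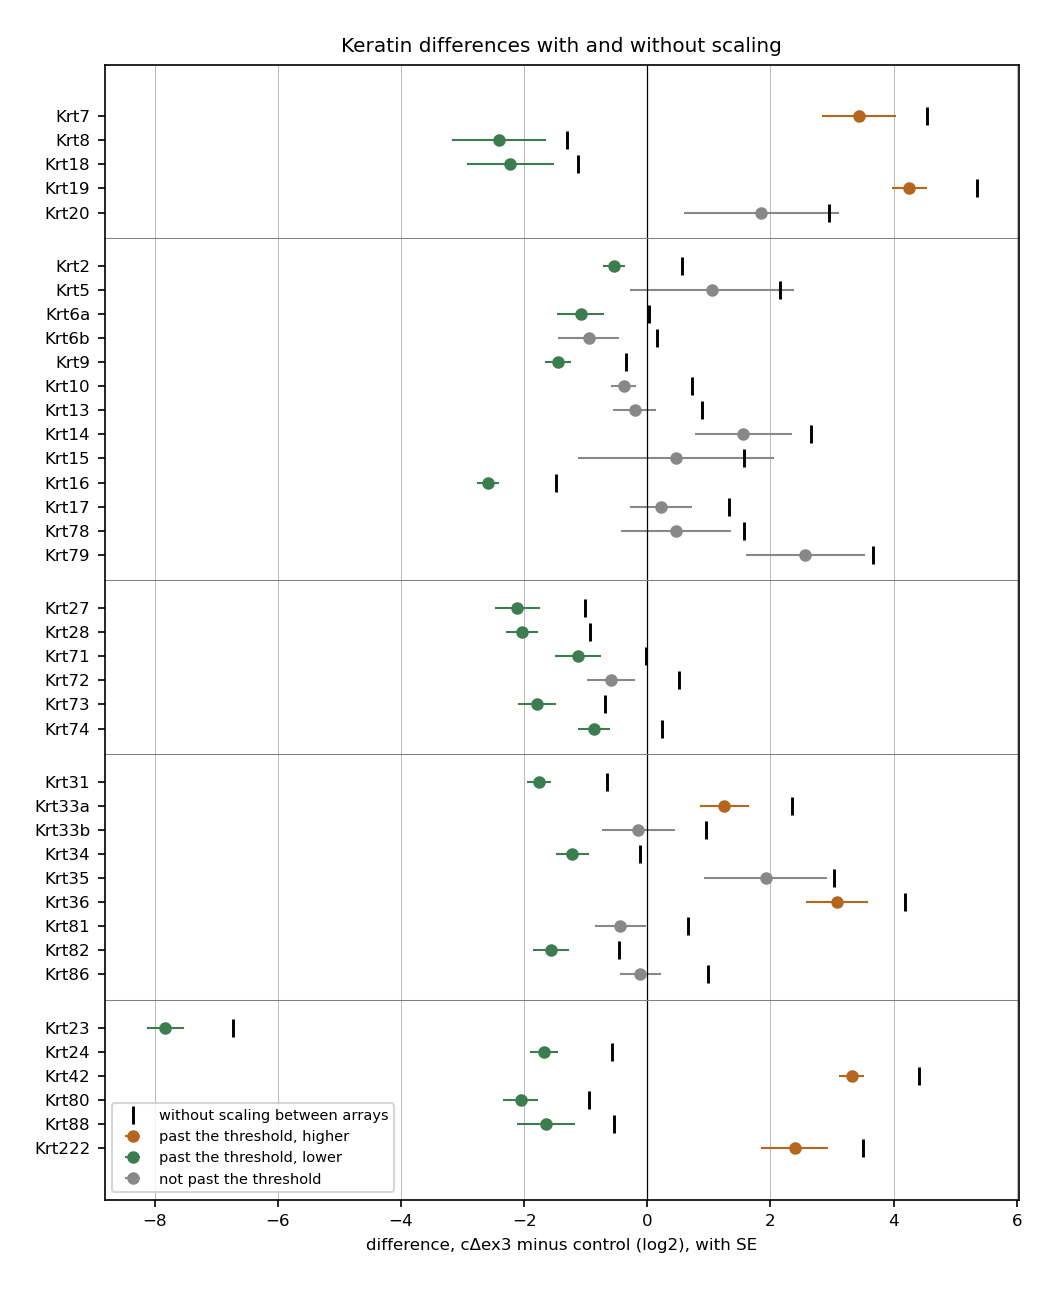
Difference in log2 level, cΔex3-labelled minus control-labelled, of each of the 39 keratins tested, with its SE (n = 4 and n = 3 arrays), coloured by whether it passed the threshold and in which direction. Black ticks give the difference without scaling between arrays, which lies 1.103 to the right for every gene, so that Krt2, Krt6a and Krt74 change side and Krt23, Krt16 and Krt8 stay below 0.

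How many keratins fell depended on the scaling. With no scaling between arrays, 9 keratins rose and 5 fell, as 55.9% of all genes rose and 8.9% fell, and the median over all genes tested moved by 1.103. Of the 18 keratins that fell, 15 still had a difference below 0 then and 5 had groups without overlap. With the 75th percentile taken over probes above background on all arrays, 7 rose and 12 fell, as 27.8% of all genes rose and 24.8% fell. After normexp 4 rose and 22 fell, as 19.2% of all genes rose and 34.9% fell. The 8 keratins that passed in one direction in all 18 alternatives, scaling included, were Krt19, Krt42 and Krt222, which rose, and Krt16, Krt23, Krt28, Krt31 and Krt80, which fell. With the slide row as a block 5 rose and 11 fell.

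Of 14 other intermediate filament genes tested, 6 rose, 1 fell and 7 did not pass, against 24% higher and 29% lower of all genes tested. Their median difference was 0.80, against −0.08 over all genes tested. Vim, the vimentin of mesenchymal cells, had levels of 6.47, 6.84, 6.93 and 5.25 on the cΔex3-labelled arrays, against 2.63, 2.29 and 3.13 on the control-labelled arrays. It was lowest of its group on array 4, where the basal keratins were highest, and its groups did not overlap. Vim rose by 3.69 (adjusted p = 0.000613), Synm, synemin, which joins vimentin and desmin filaments, by 3.46 (adjusted p = 0.000359), and Bfsp1, a filament protein of the lens, by 3.40 (adjusted p = 4.71e-05). Lmnb2, a lamin of the nuclear envelope, fell by 2.47 (adjusted p = 8.21e-05). Markers of adipocytes, which also make vimentin, were higher in the cΔex3-labelled group in 10 of 10 cases. Their summed level was between 9.81 and 10.93 in the cΔex3-labelled group and between 4.08 and 6.61 in the control-labelled group. Higher too were 10 of 10 tested genes of dermal sheath and dermis. The part of these cells in the change of Vim was not tested.

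Keratin filaments are anchored at desmosomes between cells and at hemidesmosomes on the basement membrane. Of 10 desmosome genes tested, 0 rose and 3 fell with limma, and 0 were higher at an unadjusted p under 0.05, although 3 rose without scaling between arrays. The share that fell, 3 of 10, is near the 29% of all genes tested. Dsg2, the desmoglein of simple epithelia, fell by 3.29 (adjusted p = 0.00498), Perp, a desmosomal membrane protein, fell by 2.92 (adjusted p = 0.00304), and the desmocollin Dsc2 also fell (adjusted p = 0.0163). In the cΔex3-labelled group Dsc2 was above background only on array 4, at −0.58, and read −9.30, −8.01 and −6.49 on arrays 1 to 3, against levels between 1.03 and 1.46 in the control-labelled group. With most of one group not above background its size is not settled, and the fitted difference ran from −9.20 without array 4 to −4.48 in the deposited values. Its call was lost without control-labelled array 2 (−7.27, adjusted p = 0.0523) and on arrays of 1 mouse (−6.19, adjusted p = 0.198). Dsp, desmoplakin, to which keratin filaments attach, had levels of 1.13, 0.94, −1.09 and 2.14 on the cΔex3-labelled arrays, against 2.26, 2.09 and 2.49 on the control-labelled arrays. It was lowest on array 3 and highest on array 4, as were Krt8 and Krt18, and differed by −1.49 (adjusted p = 0.109), or by −1.95 (adjusted p = 0.031) without array 4. The count of desmosome genes that fell was 5 without array 4.

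Of 12 hemidesmosome and plakin genes, 7 rose and 0 fell with limma, and 0 were lower at an unadjusted p under 0.05. The share that rose was 58.3%, against 24% of all genes tested. The integrin subunits Itga6, also of blood vessels and other cells, and Itgb4 rose by 5.02 (adjusted p = 0.000139) and 2.47 (adjusted p = 0.000287). Evpl, envoplakin of the cornified envelope, rose by 2.53 (adjusted p = 0.00127) and Cd151, a tetraspanin bound to laminin-binding integrins, by 1.73 (adjusted p = 0.00195). Plec, plectin, which ties keratin and vimentin filaments to these sites, differed by 0.23 and did not pass (adjusted p = 0.376), but passed as higher after quantile normalisation (0.75, adjusted p = 0.0264), in the deposited values (0.83, adjusted p = 0.0117) and without scaling (1.34, adjusted p = 0.00399). Of 10 tested genes that handle or modify keratin, 1 rose (10%) and 2 fell (20%), against 24% and 29% of all genes tested.

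Keratinocyte and hair markers other than keratins went both ways. Of 10 keratinocyte genes tested 5 rose (50%) and 3 fell (30%), against 24% and 29% of all genes tested. Among the 5 that rose, 2 entered the test through the cΔex3-labelled arrays alone. The summed level of the list was between 3.76 and 4.77 in the cΔex3-labelled group and between 5.07 and 5.74 in the control-labelled group. Perp, also a desmosome gene, makes up most of the control-labelled sum, at 4.894 to 5.615 there. The list's median was between −3.03 and −0.53 in the cΔex3-labelled group and between −2.18 and −0.84 in the control-labelled group, with overlap. Trp63, the p63 factor of basal epithelium, rose by 1.96 (adjusted p = 3e-04), and Krtdap, keratinocyte differentiation associated protein, was above background on all 4 cΔex3-labelled and 0 of 3 control-labelled arrays, at least 2.88-fold higher. After normexp Krtdap differed by 0.22 and did not pass (adjusted p = 0.306). Sbsn, suprabasin of differentiating epidermis, rose by 3.41 (adjusted p = 0.000454). Sfn, 14-3-3σ of differentiating keratinocytes, fell by 1.73 (adjusted p = 0.000336), and differed by −0.62 without scaling (adjusted p = 0.0809). Of 7 hair matrix and shaft genes tested 0 rose and 4 fell with limma (57.1%, against 29% of all genes tested), and 1 was higher at an unadjusted p under 0.05. Hoxc13, the regulator of hair keratins, was above background on 0 arrays.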

How the data were processed

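RNA of 7 samples was measured on 1-colour Agilent mouse arrays, and groups were taken from the sample titles. Per the file headers, Feature Extraction 10.7.1.1 read 1 slide in 1 scan and made the processed intensity used here, which is linear, corrected for background and spatial trend, and not scaled between arrays, with flags for spots that are well above background, saturated or outlying. On 4 of 7 arrays the header's slide position was not the one in the deposit's naming; samples were assigned by the deposit's record, and slide rows by the header. A deposited table of log2 values, of unstated making and with nearly equal distributions in its columns, served as an alternative.

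For each array the 75th percentile was subtracted from log2 processed signals, with control and outlier spots left out and spots of a probe averaged. Probes were named through their accession and the RefSeq gene table on GRCm38.p6; no probe coordinates are given, as the array's annotation is on another build. Probes above background on 3 or more of 7 arrays were tested (42429), and a gene was read by its tested probe with the highest mean (18026 genes). The fit was limma 3.58.1 in R 4.3.3 (lmFit, then eBayes; two-sided; no covariates), with adjustment by Benjamini-Hochberg and a threshold of 0.05; all adjusted p-values are limma's. Steps were tested on simulated data, where 9% of 100 genes changed 2-fold and 61% of 100 genes changed 4-fold were recovered. A gene that did not pass may thus still differ. Far fewer genes changed there than were called on the arrays, so these shares need not hold here.

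The members and lists were chosen with earlier results of these data known, and lists are described by counts and medians. All keratins are named. Of other lists, up to 4 tested members of smallest p could be named, and not all are; 12 fixed genes (Vim, Dsp, Plec, Trp63, Cdh1, Epcam, Alb, Adipoq, Msln, Wt1, Acta2 and Ctnnb1) always are; Crisp1, Cyp8b1, Baat, Sox2 and Hoxc13 were named after their values were seen. The alternatives were normexp background correction (offset 50), run on the median spot signal because the files hold no mean, other scalings and none, the deposited table, other filters, the mean over a gene's probes, blocks by replicate number and slide row, arrays of 1 mouse, and each array left out. Normexp on the median and the fit without scaling were chosen after seeing the data. The labels call the samples biological replicates.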

Additional observations from a re-analysis of the deposited data

Results flagged for a closer look

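Among 72 genes checked for a lone array within the 4 cΔex3-labelled arrays, 39 of them keratins, 2 had one array set apart from the others by Dixon's test, which flags about 1 in 20 groups by chance. Krt78, a keratin of stratified epithelia, was at −3.14 on cΔex3-labelled array 4 and between −6.43 and −6.20 on the other cΔex3-labelled arrays, and its second probe was above background on array 4 alone. Sfn, a keratinocyte gene, was at −2.40 on cΔex3-labelled array 4 and between −2.85 and −2.77 on the other cΔex3-labelled arrays.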

How the results depend on the processing

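Over 18 alternatives, the keratin differences were unchanged in direction and side of the threshold in 560 of 698 cases, lost the threshold in 87, passed it newly in 17 and turned in direction in 34, and the cause was not tested. The count of keratins that fell, 18, became 11 with the slide row as a block, 11 on arrays of 1 mouse and 5 without scaling, and lay between 11 and 20 with 1 array left out, 11 without any 1 of the control-labelled arrays. The same count of those that rose, 6, lay between 5 and 7 with 1 array left out. Other intermediate filament genes rose in 10 cases without scaling, and fell in 3 after normexp, 2 without a filter, and 1 to 3 with 1 array left out. Desmosome genes rose in 1 case with the percentile over probes above background on all arrays, 3 without scaling and 0 to 1 with 1 array left out, and fell in 2 to 5 with 1 array left out. Hemidesmosome and plakin genes rose in 5 to 7 and fell in 0 to 1 with 1 array left out.

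Same-numbered arrays of the groups deviated together with correlations of −0.00881, −0.000874 and 0.0182, so that the numbers pair nothing. With the replicate block on arrays 1 to 3, 7 keratins rose and 19 fell, other filament genes fell in 2 cases, desmosome genes in 6 and hemidesmosome and plakin genes in 1, and the differences turned for Krt5 (−0.25), Krt15 (−1.08, adjusted p = 0.0347, past the threshold as lower), Krt17 (−0.14) and Krt78 (−0.33).

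Without scaling, differences turned for Krt2 (0.56), Krt6a (0.021), Krt6b (0.15), Krt10 (0.72), Krt13 (0.90), Krt33b (0.96), Krt72 (0.51), Krt74 (0.24), Krt81 (0.67), Krt86 (0.99), Cdh1 (0.33) and Ctnnb1 (1.08). After normexp they turned for Krt17 (−0.50), Krt33a (−0.59), Krt78 (−0.43), Ctnnb1 (0.094) and Jup (−0.15). Ctnnb1 read 0.46 after quantile normalisation, 0.14 with the percentile over probes above background on all arrays, where Krt33b read 0.019 and Krt86 0.055, and 0.52 in the deposited values, where Krt33b read 0.11. On arrays of 1 mouse Krt72 read 0.074, Krt86 0.038, Cdh1 0.46 and Ctnnb1 0.018. With the slide row as a block Krt15 read −0.32 and Krt17 −0.16, and by the mean of its probes Krt10 read 0.43. With 1 array left out, differences turned for Krt5 (−0.25 without cΔex3-labelled array 4 to 1.64 without array 1), Krt15 (−1.08 without array 4 to 1.25 without array 1), Krt17 (−0.14 without array 4 and −0.08 without control-labelled array 1, to 0.53 without cΔex3-labelled array 1), Krt33b (−0.61 without cΔex3-labelled array 2 to 0.18 without control-labelled array 1, and above 0 without cΔex3-labelled array 1 or 3), Krt78 (−0.33 without cΔex3-labelled array 4 to 1.00 without control-labelled array 2), Krt86 (−0.41 without cΔex3-labelled array 4 to 0.045 without array 1) and Cdh1 (−1.68 without array 4 to 0.082 without array 3). Signal over background limited the test to 39 of 53 keratins.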
